A study of Homo sapiens with 9 samples.

Results

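Histone H3.3 is the H3 variant that cells place into chromatin outside DNA replication. Its genes H3F3A and H3F3B and the genes of the chaperones that handle it, HIRA, UBN1, UBN2, CABIN1, DAXX and ATRX, form the 8 genes described here, out of 26186 genes in the count table. They were taken by identifier from the GENCODE 29 annotation and each matched 1 row. RNA was sequenced from MCF10A, a single line of non-tumorigenic human mammary epithelial cells, in 9 libraries. In 3 of them the cells carried shGFP, a control hairpin against green fluorescent protein. In 3 they carried shCHAF1B-1, and in 3 shCHAF1B-2, which are separate hairpins against CHAF1B. Cells of every group were infected with lentivirus made from the pLKO.1 vector, kept in 2 µg/mL puromycin from 24 hours on, and collected on day 3. CHAF1B encodes a subunit of CAF-1, the chaperone that puts H3.1 and H3.2 onto newly copied DNA. The comparison asks whether the messages of the replication-independent pathway were higher when CAF-1 was reduced.

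In background terms, the H3 proteins fall into a replicative kind (H3.1 and H3.2), made in S phase, and the replacement variant H3.3, made through the whole cell cycle. The HIRA complex, in which HIRA is held with the histone-binding subunit UBN1 or its relative UBN2 and with CABIN1, deposits H3.3 at active genes and in gaps left in chromatin. DAXX binds H3.3 directly and works with the remodeller ATRX at telomeres and other heterochromatin. When CAF-1 is missing, HIRA is known to be able to fill nucleosome gaps with H3.3.

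H3F3A and H3F3B encode the same protein in different words. Their coding sequences, 411 bases each, were identical at 323 bases (78.6%), and 0 of the 136 codons encoded another residue. Against HIST1H3A, a gene for replicative H3.1, H3F3A was identical at 316 bases (76.9%) and 5 codons encoded another residue. The stretch shown here holds the block of codons in which the chaperones tell H3.3 from H3.1. It runs from coding base 253 to 282 of each gene (GENCODE 29 transcripts, GRCh38), with codons 88 to 91 in capitals, the start codon counted as 1.
H3F3A: ttccagagcGCAGCTATCGGTgctttgcag
H3F3B: tttcagagcGCAGCCATCGGTgcgctgcag
HIST1H3A: ttccagagcTCCGCTGTGATGgctctgcag
H3F3AP4: ttccagagcGCAGCTATCGGTgctttgcag
With positions counted from 1 at the 5′ end of the stretch, H3F3B differed from H3F3A by C3T, T15C, T24G and T25C, of which only T15C lies in capitals. HIST1H3A differed from H3F3A at 8 of the 30 bases, 7 of them among the 12 capitals. The last line is a processed pseudogene of H3F3A, shown because it bears on how H3F3A could be counted: over the coding sequence H3F3AP4 was identical to H3F3A at 411 of 411 bases, and H3F3AP6 at 408.

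The libraries held between 24339914 and 31819468 counts. CPM is a gene's count relative to its library's total, scaled by TMM as all CPM here. CHAF1B, the targeted gene, stood at 35.2, 41.0 and 36.8 CPM in shGFP and between 2.56 and 3.89 CPM in the 6 knockdown libraries. This checks the labels of knockdown against control. It cannot tell the hairpins apart, since their means were 3.29 (shCHAF1B-1) and 3.21 CPM (shCHAF1B-2). All 8 basal mammary markers were detected, at a summed 10400 to 11200 CPM in shGFP, but 8500 to 9230 for the first hairpin and 8410 to 8780 for the second. The sum joins markers that went opposite ways: KRT5 stood at 7070 to 7640 CPM in the controls and 3880 to 4280 CPM in the 6 knockdown libraries, and KRT17 at 793 to 953 against 361 to 440. LAMB3 stood at 960 to 1050 CPM against 2540 to 2940, and ITGA6 and CDH1 were also higher in each knockdown library than in each control. Of 5 luminal markers 4 had rows and summed to 31.3 to 36.8 CPM over all libraries, with ESR1, the oestrogen receptor gene, between 0.807 and 1.45 CPM. Most of this sum was GATA3 and FOXA1. PRLR stood at 0.246 to 0.502 CPM in the controls and 1.34 to 2.15 CPM in the 6 knockdown libraries. The library shCHAF1B-1 replicate 3 stood apart. Its 10 B lymphocyte markers summed to 232 CPM, against 2.81 and 3.11 CPM in the other shCHAF1B-1 libraries, 2.29 to 3.68 in the controls and 2.69 to 3.26 in shCHAF1B-2. MS4A1 alone gave 105 of the 232 CPM. CR2 did not share this rise. It stood at 0.355 CPM in this library, 0.417 to 0.631 CPM in the other knockdown libraries and 1.04 to 1.68 CPM in the controls. FCRL1 was at 0 in all shGFP libraries. Of 7 fibroblast markers 5 were in the table; these summed to 8 to 8.42 CPM in the controls, 13.7 to 15.4 under the first hairpin and 12.6 to 15.5 under the second, nearly all of it COL1A1. The part of these markers in the results was not tested, and values without shCHAF1B-1 replicate 3 are given beside the results. The labels do not say whether replicates were separate cultures, so p-values measure the spread between these libraries only. CPM is a share of each library, so fewer cells with a message and less of it per cell cannot be told apart.

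The messages of the pathway did not move as one. H3F3B rose and HIRA fell with either hairpin, UBN1 fell slightly, DAXX rose slightly in the mean of both hairpins, and H3F3A, UBN2, CABIN1 and ATRX did not pass the test for that mean. In it, 2 of the 8 genes (H3F3B and DAXX) rose and 2 (HIRA and UBN1) fell at a Benjamini-Hochberg adjusted p under 0.05 in edgeR's quasi-likelihood test over 16235 genes. Of all genes tested 29.2% rose and 27.7% fell in the same comparison, 56.9% together, so 4 of 8 changed is near the background share. The median log2 fold change of the 8 genes was 0.02, and that of all genes tested -0.014. With shCHAF1B-1 alone 2 rose (H3F3B and DAXX), against 27.9% of all genes, and 2 fell (HIRA and UBN1), against 25.2%, so that 4 of 8 stand beside 53.2%. Without shCHAF1B-1 replicate 3, 1 rose (H3F3B) and 2 fell with this hairpin. With shCHAF1B-2 alone 2 rose (H3F3B and H3F3A), against 26.7%, and 2 fell (HIRA and UBN1), against 24.6%, beside 51.3% changed in all. Libraries did not overlap those of shGFP for 5 of the 8 genes with shCHAF1B-1 (3 higher and 2 lower, against 31% and 29.1% of all genes, 60.1% together). With shCHAF1B-2 this was so for 4 (2 higher and 2 lower, against 29.3% and 27.8%, 57.1% together), and with all 6 knockdown libraries for 4 (2 and 2, against 25.8% and 22.7%, 48.6% together). Both comparisons use the same shGFP libraries. Every adjusted p below comes from this edgeR test and this adjustment.

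**Figure D1:**
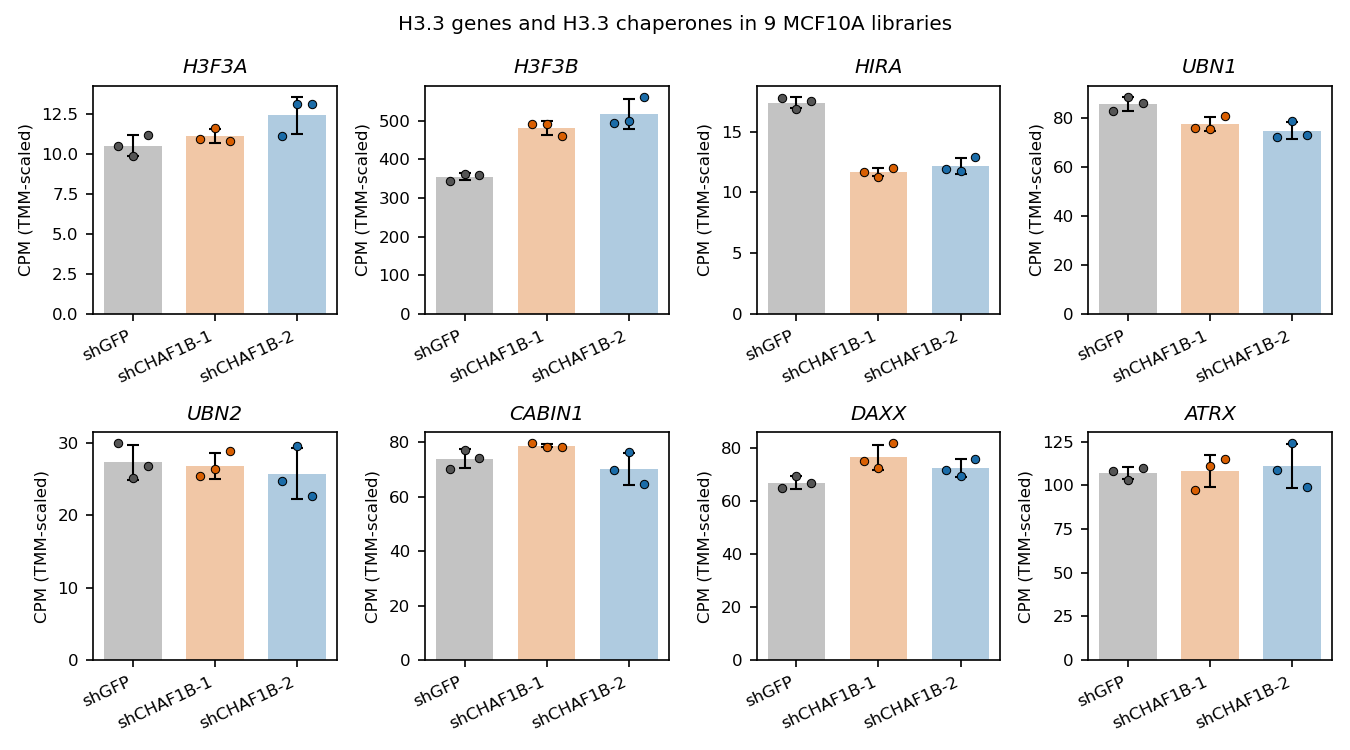
Level of each of the 8 genes in CPM (TMM-scaled, linear axes from 0) in the 9 libraries, as points by group; bars are means over 3 libraries and whiskers the SD. H3F3B lies between 461 and 562 CPM in the knockdown libraries against 344 to 361 CPM in shGFP, and HIRA between 11.3 and 12.9 CPM against 16.9 to 17.8 CPM.

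H3F3B (ENSG00000132475.10, chromosome 17, 75776434 to 75785893, minus strand, GRCh38) supplied nearly all counts assigned to H3.3. It held 8915, 10082 and 10229 counts in the shGFP libraries, 12083, 15318 and 11690 with shCHAF1B-1, and 11847, 12712 and 13368 with shCHAF1B-2. On the CPM scale these were 344, 361 and 359 in shGFP, 491, 491 and 461 with the first hairpin, and 493, 499 and 562 with the second. All 6 knockdown libraries lay above all 3 controls, a separation seen upward in 25.8% of the genes tested. Against shGFP the level was 35.7% higher with shCHAF1B-1 (log2 fold change 0.44, SE 0.0552, adjusted p = 1.6e-05) and 46% higher with shCHAF1B-2 (0.55, SE 0.0553, adjusted p = 2.3e-06). In the mean of both hairpins (0.49, SE 0.0487, adjusted p = 1.3e-06), 84.8% of genes had a lower log2 fold change than H3F3B. Without shCHAF1B-1 replicate 3 the log2 fold change for that hairpin was 0.47 (adjusted p = 2.3e-05). Each shCHAF1B-2 library lay above each shCHAF1B-1 library, as upward in 9.33% of genes, but that difference did not pass (0.11, 95% interval -0.01 to 0.22, adjusted p = 0.48). UNK, a gene on the opposite strand, shares 214 exon bases with H3F3B, and its log2 fold change in the mean was -0.20 (SE 0.0615, adjusted p = 0.014).

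H3F3A (ENSG00000163041.9, chromosome 1, 226061851 to 226072001, plus strand) was counted at far lower levels. It held 272, 275 and 319 counts in shGFP, 268, 362 and 273 with shCHAF1B-1, and 267, 335 and 311 with shCHAF1B-2. In CPM these were 10.5, 9.85 and 11.2, then 10.9, 11.6 and 10.8, then 11.1, 13.1 and 13.1. The groups overlapped: replicate 1 of shCHAF1B-2 lay among the controls, whereas its other two libraries lay above all of them. The log2 fold change was 0.08 with shCHAF1B-1 (SE 0.0888, adjusted p = 0.48) and 0.24 with shCHAF1B-2 (SE 0.0887, adjusted p = 0.034), and 0.16 in the mean (SE 0.0771, adjusted p = 0.091). The call with shCHAF1B-2 was lost in 7 of 17 alternatives, with adjusted p between 0.016 and 0.13 over all of them. The hairpins were not shown to differ (0.16, 95% interval -0.03 to 0.36, adjusted p = 0.49).

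How reads of H3F3A were assigned limits its level. Of the 50-base stretches in its annotated transcripts 11.7% also occur in transcripts of other genes. All of those occur in H3F3AP4, and they make up the coding sequence. Only annotated transcripts were compared, so matching sequence elsewhere in the genome is not counted and the share can be higher. Other H3.3 genes and copies took few counts. The 6 H3F3AP rows held 209 counts over the 9 libraries, against 2682 for H3F3A. The H3F3BP rows held 161, against 106244 for H3F3B. Most of these 161 were of H3F3BP1, with 48 counts in shGFP and 105 over the knockdown libraries. Despite its name, H3F3BP1 shares stretches with H3F3A (4.72% of H3F3A's 50-base stretches) and is not among the genes that share them with H3F3B. Its counts therefore bear on H3F3A too. H3F3C, an H3.3-like gene on another chromosome, had a mean of 0.774 CPM in shGFP and 1.01 CPM over the knockdown libraries (log2 fold change 0.36, SE 0.227, adjusted p = 0.19). How reads that fit several places were treated is not given in the sources used here. Counted as deposited, H3F3B made up 97.1% ± 0.20 of the counts of both genes in shGFP, 97.7% ± 0.074 with shCHAF1B-1 and 97.7% ± 0.19 with shCHAF1B-2 (SD, n = 3 each). The summed level of both genes was 365 ± 9.58 CPM in the controls, 492 ± 17.7 under the first hairpin and 530 ± 39 under the second (SD over 3 libraries); this sum is almost entirely H3F3B. These shares and sums are given as a description, with no test.

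**Figure D2:**
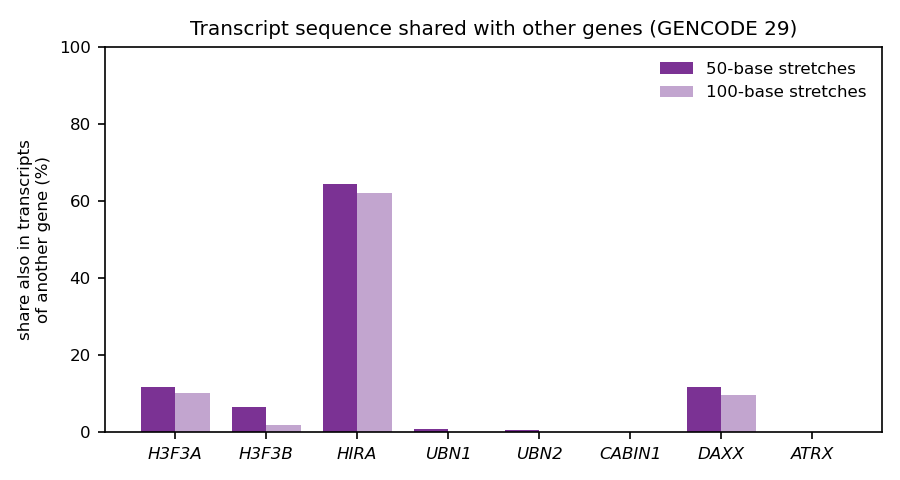
Share (%) of the 50-base and 100-base stretches in each gene's annotated transcripts that also occur, on either strand, in transcripts of another gene of GENCODE 29. HIRA stands highest at 64.4% and 62%, all shared with C22orf39, followed at 50 bases by DAXX at 11.8% and H3F3A at 11.7%; CABIN1 and ATRX have 0.

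HIRA (ENSG00000100084.14, chromosome 22, 19330698 to 19447450, minus strand) encodes the scaffold of the complex named after it. It held 462, 471 and 500 counts in shGFP, 288, 354 and 305 with shCHAF1B-1, and 285, 301 and 308 with shCHAF1B-2. The CPM values were 17.8, 16.9 and 17.5 in shGFP, 11.7, 11.3 and 12.0 with shCHAF1B-1, and 11.9, 11.8 and 12.9 with shCHAF1B-2. Every knockdown library lay below every control, as was so for 22.7% of the genes tested. HIRA fell by 32.8% with shCHAF1B-1 (log2 fold change -0.57, SE 0.0709, adjusted p = 1.3e-05) and by 29.9% with shCHAF1B-2 (-0.51, SE 0.0712, adjusted p = 4.2e-05). In the mean of both hairpins (-0.54, SE 0.0603, adjusted p = 3.9e-06), 10.1% of genes had a lower log2 fold change. It passed in every alternative tried, with -0.59 (adjusted p = 3.8e-05) for shCHAF1B-1 without replicate 3, and the hairpins differed by 0.06 (95% interval -0.10 to 0.22).

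HIRA shares exon sequence with a neighbour on the same strand, C22orf39. The annotated exons overlap over 2857 bases, and 64.4% of HIRA's 50-base stretches are also in C22orf39. Reads from these exons can belong to either gene, so the HIRA counts can hold only a part of its reads, or some of its neighbour's. C22orf39 itself stood at 16.7 ± 1.13 CPM in shGFP and 16.7 ± 0.555 CPM over the 6 knockdown libraries, with a log2 fold change of 0.00 (SE 0.0620, adjusted p = 0.98). How the counting divided reads between these genes was not tested.

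UBN1 (ENSG00000118900.14, chromosome 16, 4846665 to 4882360, plus strand), whose protein contacts H3.3 for the HIRA complex, changed less. Its levels were 82.9, 88.5 and 85.9 CPM in shGFP, 76.0, 75.6 and 80.8 CPM with shCHAF1B-1, and 72.4, 78.7 and 73.1 CPM with shCHAF1B-2. The 6 knockdown libraries were again all below the controls. UBN1 fell by 0.15 on the log2 scale with shCHAF1B-1 (SE 0.0503, adjusted p = 0.024) and by 0.20 with shCHAF1B-2 (SE 0.0506, adjusted p = 0.0048). In 4 of the 9 fits that leave out 1 library (shGFP replicates 2 and 3, and shCHAF1B-1 replicates 1 and 2) the call for shCHAF1B-1 was lost, at adjusted p from 0.051 to 0.10. For shCHAF1B-2 and for the mean of both hairpins (-0.17, SE 0.0434, adjusted p = 0.0037) it held in each alternative. GLYR1, on the opposite strand, shares 115 exon bases with UBN1 and did not pass (-0.04, SE 0.0376, adjusted p = 0.34).

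UBN2 (ENSG00000157741.14, chromosome 7, 139230356 to 139308236, plus strand), the relative of UBN1, did not pass. It stood at 29.9, 25.1 and 26.8 CPM in shGFP, 25.4, 26.4 and 28.8 CPM with shCHAF1B-1, and 24.7, 29.6 and 22.7 CPM with shCHAF1B-2, and the groups overlapped. The log2 fold change in the mean of both hairpins was -0.05 (95% interval -0.23 to 0.12, adjusted p = 0.60).

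CABIN1 (ENSG00000099991.17, chromosome 22, 24011192 to 24178628, plus strand), the third partner of HIRA and also known as an inhibitor of calcineurin, stood at 70.2, 77.1 and 74.4 CPM in shGFP. It read 79.6, 78.4 and 78.3 CPM with shCHAF1B-1, above each control, and 69.7, 76.3 and 64.6 CPM with shCHAF1B-2. Neither change passed: the log2 fold changes were 0.09 (95% interval -0.04 to 0.22) and -0.07 (-0.20 to 0.06). Between the hairpins the level was lower with shCHAF1B-2 without overlap, as downward in 7.96% of genes (-0.17, 95% interval -0.29 to -0.04, unadjusted p = 0.016), but the adjusted p was 0.42. It was the only one of the 8 genes under an unadjusted 0.05 in that comparison, in which 0 of the 16235 genes passed and 1800 lay under an unadjusted 0.05. The Wald test of DESeq2 and limma-voom also called 0 genes between the hairpins.

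The messages of the second route to H3.3 deposition showed little change, and deposition itself was not measured. DAXX (ENSG00000204209.12, chromosome 6, 33318558 to 33323016, minus strand), the H3.3-binding chaperone of that route, stood at 65.0, 69.7 and 66.8 CPM in shGFP. With shCHAF1B-1 it stood at 75.4, 72.7 and 81.9 CPM, and with shCHAF1B-2 at 71.9, 69.7 and 76.1 CPM. The knockdown libraries did not overlap the controls, though shCHAF1B-2 replicate 2 and shGFP replicate 2 round to the same level. DAXX rose by 0.19 on the log2 scale with shCHAF1B-1 (SE 0.0557, adjusted p = 0.011). With shCHAF1B-2 the log2 fold change was 0.11 (SE 0.0560) and did not pass (adjusted p = 0.11), while the difference between the hairpins was -0.08 (95% interval -0.20 to 0.04, adjusted p = 0.58). The call for shCHAF1B-1 rests on single libraries. It was lost without shCHAF1B-1 replicate 3, the library with B lymphocyte markers (0.14, adjusted p = 0.057), and without shGFP replicate 1 (0.17, adjusted p = 0.053). The call for the mean of both hairpins (0.15, SE 0.0486, adjusted p = 0.017) was 0.13 (adjusted p = 0.033) without shCHAF1B-1 replicate 3, and it was lost without shGFP replicate 1 (adjusted p = 0.09) and with upper-quartile scaling (adjusted p = 0.052). AL662820.1, on the same strand, shares 441 exon bases with DAXX and has no row in the count table, so its level could not be read.

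ATRX (ENSG00000085224.21 in the table, chromosome X, 77504878 to 77786233, minus strand), the remodelling ATPase that pairs with DAXX, did not pass in any comparison. Its levels were 108, 103 and 110 CPM in shGFP, 97.2, 111 and 115 CPM with shCHAF1B-1, and 109, 124 and 99.2 CPM with shCHAF1B-2. Both knockdown groups held libraries above and below the controls. The log2 fold change in the mean was 0.03 (95% interval -0.11 to 0.17, adjusted p = 0.72).

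Per kilobase of exon, the genes kept a wide order of levels. In shGFP H3F3B stood at 57.8 ± 1.57 CPM per kb, DAXX at 21.8 ± 0.767, UBN1 at 10.0 ± 0.328, CABIN1 at 7.87 ± 0.371, ATRX at 5.55 ± 0.186, HIRA at 4.05 ± 0.111, H3F3A at 3.34 ± 0.213 and UBN2 at 1.66 ± 0.148 (SD, n = 3). No neighbours in this order overlapped in their library ranges, in any of the 3 groups. With both hairpins HIRA and H3F3A changed places: with shCHAF1B-1 H3F3A stood at 3.52 ± 0.144 CPM per kb and HIRA at 2.72 ± 0.0789, and with shCHAF1B-2 at 3.95 ± 0.369 and 2.84 ± 0.150. Exon length is that of all annotated exons of a gene merged, so a gene with long rare exons reads low on this scale. HIRA, H3F3A and DAXX carry the limits on shared sequence given above.

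**Figure D3:**
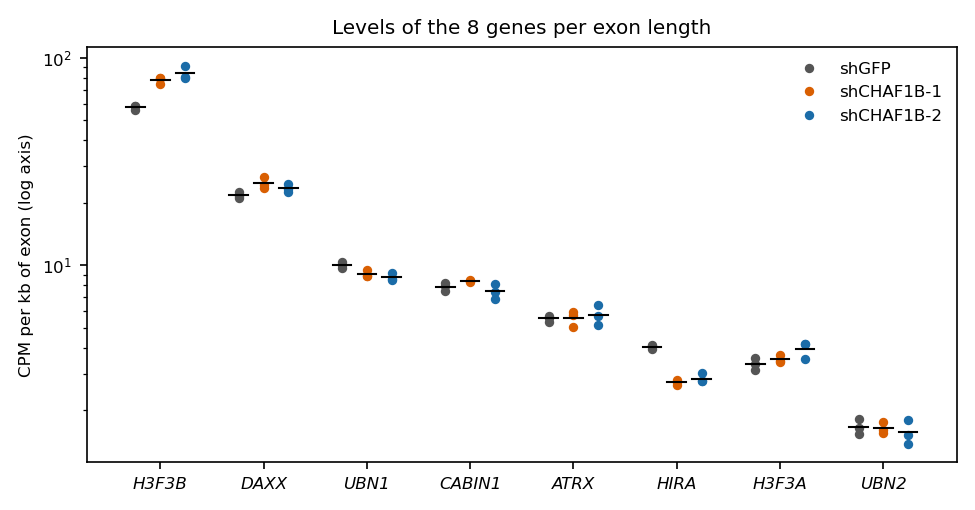
Level of the 8 genes in CPM per kb of merged exon on a log axis, each point a library, coloured by group, and each black line a group mean, ordered by the mean in shGFP. HIRA lies above H3F3A in shGFP (4.05 against 3.34) and below it with shCHAF1B-1 (2.72 against 3.52) and shCHAF1B-2 (2.84 against 3.95).

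The genes that work with these chaperones were described by a list of 16, all of which were tested. For the mean of both hairpins 4 of the 16 rose, beside 29.2% of all genes, and 9 fell, beside 27.7%. Together 81.2% of the list changed, beside 56.9% of all genes, and the list's median log2 fold change was -0.17. ASF1A, which hands H3.3 and H4 to HIRA, rose by 0.24 (SE 0.0557, adjusted p = 0.0023), CHD2, a remodeller linked to H3.3 deposition, by 0.37 (SE 0.0575, adjusted p = 9.2e-05), and the PML body genes SP100 and MORC3 by 0.44 (SE 0.0408) and 0.61 (SE 0.0463). PML itself, which scaffolds the bodies where DAXX gathers, stood at 0.02 (SE 0.0570, adjusted p = 0.78). ZMYND11, a reader of H3.3 methylated at a lysine of its tail, fell most, by 0.96 (SE 0.0484, adjusted p = 1.7e-09), and RPA3, a subunit of the single-strand DNA-binding protein RPA that HIRA is known to meet, by 0.66 (SE 0.0511, adjusted p = 1.1e-07). The other 7 that fell had log2 fold changes from -0.16 to -0.36, and CHD1, PML and SETD2 did not pass. Without shCHAF1B-1 replicate 3 the counts for the mean were again 4 and 9, and with shCHAF1B-1 alone the number that fell went from 9 to 7.

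The replication-coupled chaperones were set beside the 8 genes because CAF-1 belongs to them. Of 10 listed, CHAF1B left out, 9 fell and 0 rose in the mean of both hairpins, beside 27.7% of all genes that fell and 29.2% that rose. The list's median log2 fold change was -0.58. MCM2, the helicase subunit that also carries H3 and H4, fell by 0.75 (SE 0.0454), MMS22L by 0.87 (SE 0.0574), CHAF1A, the large subunit of CAF-1, by 0.60 (SE 0.0406), and NASP, which keeps the pool of soluble H3 and H4, by 0.57 (SE 0.0431). IPO4, an importin for histones, did not pass (-0.04, SE 0.184). The counts for the mean were the same without shCHAF1B-1 replicate 3. HIRA's -0.54 lay near the median of this list, whereas the other 5 chaperones lay between -0.17 and 0.15; the lists were chosen with results known, and no test was made between them.

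**Figure D4:**
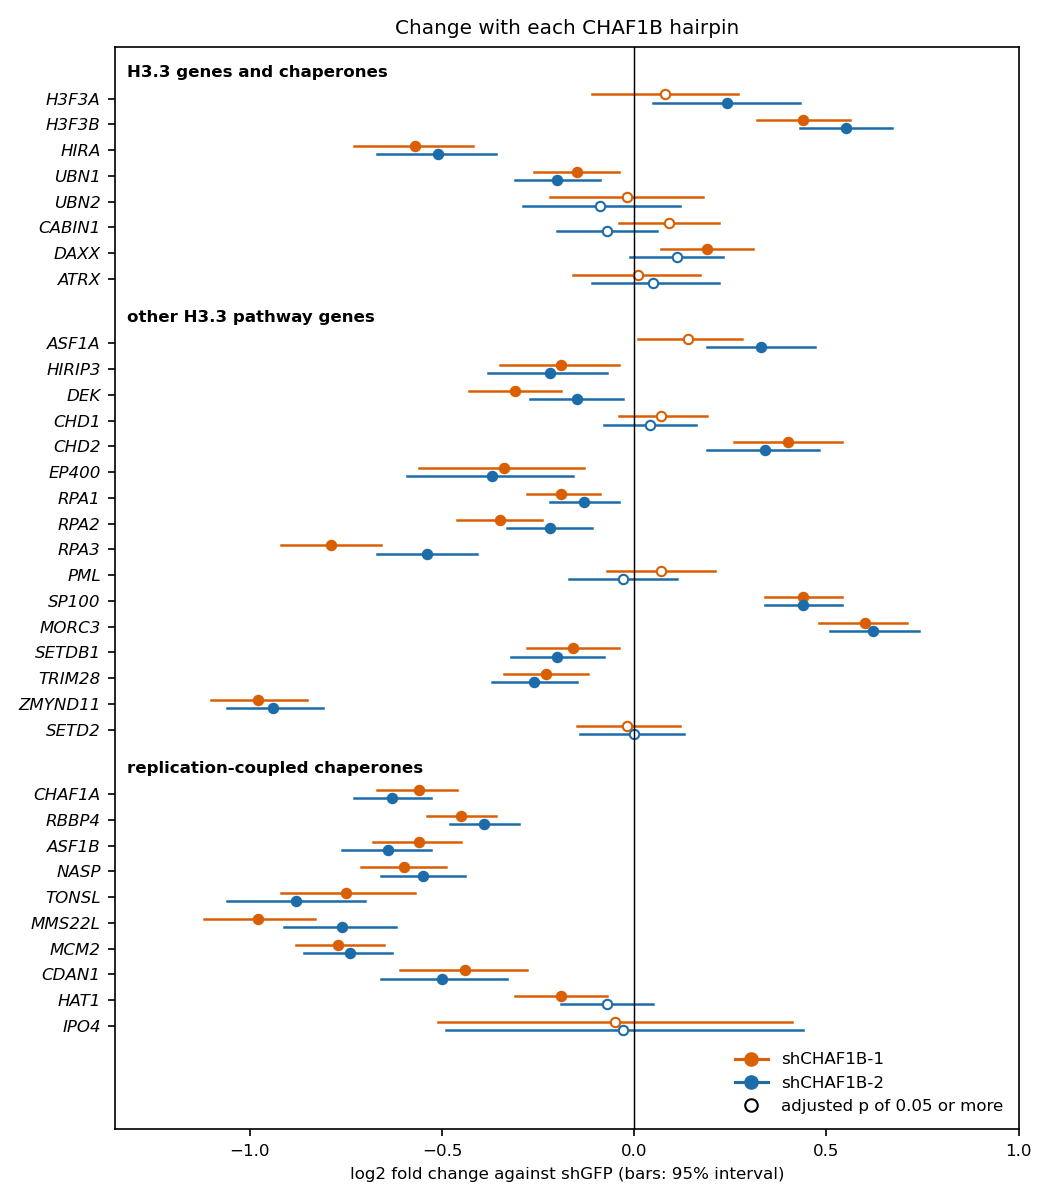
Log2 fold change against shGFP with its 95% interval for shCHAF1B-1 (orange) and shCHAF1B-2 (blue), for the 8 genes, 16 other genes of the H3.3 pathway and 10 replication-coupled chaperones; open points have an adjusted p of 0.05 or more. H3F3B lies to the right (0.44 and 0.55) and HIRA to the left (-0.57 and -0.51) of the line at 0, while 9 of the 10 replication-coupled genes pass to the left with shCHAF1B-1 (25.2% of all genes) and 8 with shCHAF1B-2 (24.6% of all genes).

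Of 13 listed genes for replicative H3, 10 were in the table and 3 had enough counts to be tested. HIST1H3E stood at 2.92 ± 0.388 CPM in shGFP and 3.16 ± 0.343 CPM over the knockdown libraries, with a log2 fold change of 0.12 (SE 0.132, adjusted p = 0.47). HIST1H3H was at 0.37 (SE 0.230, adjusted p = 0.19) and HIST1H3G at -0.12 (SE 0.184, adjusted p = 0.64). So 0 of 3 passed in edgeR, and the lowest unadjusted p was 0.13. Most of these messages carry no poly(A) tail and the RNA was selected for one, so their levels here cannot be set against those of H3F3A and H3F3B.

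The nearest neighbours of 3 of the genes were found by the root mean square distance between log2 CPM profiles over the 9 libraries, each centred on its own mean, among 9248 protein-coding genes with a mean of at least 10 CPM. For H3F3B they were KIFAP3, ATP6V1B2 and SRPRB, at distances of 0.029, 0.032 and 0.033. For HIRA they were NAP1L1, a chaperone of H2A and H2B, CPS1 and RBBP8, at 0.037, 0.040 and 0.043. For H3F3A they were N6AMT1, CBX8 and GRPEL2, at 0.056, 0.058 and 0.060. The profiles share the same libraries and mostly reflect the difference between the groups, so this is a description of likeness only.

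H3F3B passed with both hairpins and H3F3A with shCHAF1B-2 only, but their changes were not tested against each other. As a description, promoters were read for 3 short motifs on both strands, in windows of 300 bases around each annotated start (RefSeq, GRCh38.p14). The window of H3F3B held CCAAT 4 times and TATAAA once. Of 35116 such windows 0.991% hold CCAAT at least 4 times, 34.6% hold it at all, and 11.5% hold TATAAA. The 4 windows of H3F3A held CCAAT at most once and no TATAAA. These runs of the H3F3B promoter, minus strand, show 2 of its CCAAT motifs and its TATAAA in capitals.
chr17:75779967-75779996: tCCAATcattaggccactttaacagCCAAT
chr17:75779791-75779820: gtgaagcgtgccTATAAAaacggaggcgac
The third motif, TGACGTCA, was in 1 of the 2 windows of UBN1, which also held CCAAT 2 times, and in 1.85% of all windows, and HIRA and UBN2 held 0 of any of the motifs. CABIN1 held CCAAT 2 times. Of the 8 genes 6 had windows, and DAXX and ATRX had none. The counts describe letters in these windows and say nothing of what binds there.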

How the data were processed

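The table holds polyadenylated RNA of 9 MCF10A libraries made with the TruSeq RNA kit, version 2, per the labels' protocols. The authors deposited raw counts per gene. Per the submitters' processing notes the tools were DESeq2 1.18.1, STAR 2.5.3a and HTSeq 0.8.0; mm10 and hg38 are named as builds, without saying which tool or build did what. Counting mode, and how reads that fit several places were treated, are not given in the sources used here. The kit does not keep strand, so overlapping and antisense genes cannot be told apart. Of 26186 rows 26149 matched GENCODE 29 by identifier without version.

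A filter on low counts (edgeR's filterByExpr with its count set to 10, total to 15 and proportion to 0.7) kept 16235 genes and all 8 members. Counts were scaled by TMM and tested in 1 fit of 9 libraries with edgeR 4.0.16 in R 4.3.3, group as the only term. Alternatives were RLE and upper-quartile scaling, DESeq2 1.42.0, limma-voom (limma 3.58.1), other filters, only the groups compared, a replicate block and leaving out each library. The fit was also run on simulated counts in which only a small part of the genes changed. Far more genes passed against shGFP here, so that run does not check the calls on these data. No pair of libraries within a group agreed within sampling noise (chi-square per gene 4.08 or more). Pairs across groups were not compared in this way. The 8 members, all lists, and the rule for named genes (the members, CHAF1B, up to 4 genes of each list with the smallest adjusted p for the mean of both hairpins, the genes behind counts up to 5, genes overlapping a member, and the 3 nearest profiles) were chosen with earlier results of these data known. Depth was 24339914 to 31819468 counts per library, at which 3 counts are 0.0962 to 0.126 CPM.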

Additional observations from a re-analysis of the deposited data

How the results depend on the processing

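H3F3B and HIRA kept their direction and call for each hairpin and for their mean in every alternative: the log2 fold change of H3F3B in the mean ranged from 0.46 to 0.51 and that of HIRA from -0.57 to -0.53. The number of members that rose fell from 2 to 1 with upper-quartile scaling (shCHAF1B-2 and the mean), and with DESeq2 and no filter (shCHAF1B-2). Leaving out 1 library gave 1 to 2 risen members for each hairpin and 1 to 3 for the mean, and 1 to 2 fallen members for shCHAF1B-1. The cause was not tested. Values near 0 changed sign, none of them past the threshold. ATRX read -0.02 (shCHAF1B-1) and -0.00 (mean) and CABIN1 -0.02 (mean) with upper-quartile scaling, and CABIN1 -0.00 with a filter of 1 CPM. The ranges of single genes given next are over the main fit and all alternatives. ATRX ranged from -0.04 to 0.08 with shCHAF1B-1, -0.04 to 0.13 with shCHAF1B-2, -0.01 to 0.07 in the mean and -0.05 to 0.12 between hairpins. UBN2 ranged from -0.08 to 0.05 with shCHAF1B-1, -0.11 to 0.01 in the mean and -0.18 to 0.02 between hairpins. In the mean CABIN1 ranged from -0.03 to 0.04 and C22orf39 from -0.06 to 0.03, and CHAF1B between hairpins from -0.21 to 0.10. Pseudogene rows were added to the gene each is named after, so H3F3BP1 counted for H3F3B although it shares stretches with H3F3A. The share of H3F3B in H3.3 counts was 96.9% (shGFP) and 97.6% (shCHAF1B-1) with these rows added. Per exon length it was 94.5%, 95.7% and 95.5%; leaving out 1 library gave 97% to 97.2% in shGFP, 97.7% to 97.8% with shCHAF1B-1 and 97.6% to 97.8% with shCHAF1B-2. Libraries with the same replicate number did not deviate together (correlations of their deviations from -0.136 to 0.09). With the number as a replicate block 8305, 7981 and 8913 genes passed for shCHAF1B-1, shCHAF1B-2 and the mean, against 8632, 8324 and 9231 without it, and no call of a member changed. H3F3A and HIRA, with 267 to 362 and 285 to 500 counts per library, have the fewest reads of the members and, with UBN2 and ATRX, the widest intervals.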
